A study of Capra hircus with 2 samples.

Results

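miR-423-5p and miR-423-3p are the 2 mature miRNAs cut from the opposite arms of the mir-423 hairpin. They were chosen by name among the 346 conserved miRNAs of the dairy goat mammary gland whose sequences were listed with these data. Small RNA was sequenced in 2 libraries, 1 from dry period glands and 1 from glands at peak lactation, and each library was made from RNA pooled from 3 Xinong Saanen dairy goats of 2.5 years. The sampling days, 75 and 320 after lambing, are assigned to the stages in opposite order in the sample labels and in the methods, and the stages were taken here from the state label. With 1 library per stage there was no replicate check, so intervals cover the counting of reads only. Reads made by PCR are not independent molecules, and tests compare these libraries and not the stages.

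A miRNA hairpin is cut by Drosha and then by Dicer into a short duplex. Usually one strand of the duplex is kept in an Argonaute protein, where it guides repression of messenger RNAs, and the other strand is mostly degraded. Targets are read chiefly through the seed, bases 2 to 8 from the 5′ end, so that a shift of the 5′ end by a single base gives another seed, while a shift of the 3′ end leaves the seed as it is. The 3′ end is often trimmed or lengthened after cutting, commonly by adenines or uridines. miR-423 is made in many tissues and is a common reference in PCR panels of small RNA. The goat annotation (assembly ARS1.2, used for names only) places the gene MIR423 within NSRP1, a gene for a nuclear speckle protein that regulates splicing, with 0 other miRNA genes within 10 kb.

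The listed sequences are shown because every count below starts from them, with the seed in capitals.
miR-423-5p: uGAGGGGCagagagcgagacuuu
miR-423-3p: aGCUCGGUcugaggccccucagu
Both are 23 nt long. The 5p arm is rich in G (10 of its 23 bases) and has a GC content of 56.5%, against 65.2% for the 3p arm. No other sequence among 440 conserved and candidate miRNAs had the seed of either arm, and 0 other conserved miRNAs shared the first 18 nt of either arm, so that no read was split between names. Folded against each other with RNAduplex, the arms formed 15 predicted base pairs with a free energy of -28.1 kcal/mol, which left the last 5 bases of the 5p arm and the last 2 bases of the 3p arm unpaired.

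The libraries held 14851375 clean reads (dry period) and 15712891 clean reads (peak lactation). Conserved miRNAs took 61.1% of the dry period reads and 14.4% of those from peak lactation, by the counting rule given below. The study, which matched reads to miRNA precursors, reported somewhat fewer such reads for the dry period and far more for peak lactation. Values scaled on conserved miRNA reads depend on this count, also in their direction. With the totals that the study reported, the share of both miR-423 arms would be lower at peak lactation. All 8 listed markers of mammary epithelium (miR-200a, miR-200b, miR-200c, miR-141, miR-429, miR-205, miR-183 and miR-375) were present, with a summed level of 3016 reads per 1000000 clean reads (RPM) in the dry period and 1589 RPM at peak lactation. Their single levels ran from 6.80 to 1050 RPM and from 0.318 to 412 RPM. The 3 red blood cell miRNAs summed to 110 and 190 RPM. The 5 miRNAs of striated muscle summed to 7299 and 3874 RPM, nearly all of it miR-1 (7175 and 3835 RPM). The others were far lower, with miR-206 at 61.4 and 10.1 RPM and miR-499 at 57.6 and 26.9 RPM. In the same order, miR-133a was at 3.37 and 1.34 RPM and miR-133b at 1.41 and 0.38 RPM, so the sum speaks for miR-1 alone. The liver miRNA miR-122 was at 4.17 and 1.72 RPM. The smooth muscle miRNAs miR-143 and miR-145 summed to 11846 and 5199 RPM. Their changes were unlike, with miR-143 at 8544 and 4711 RPM and miR-145 at 3301 and 488 RPM. The 4 white blood cell miRNAs summed to 481 and 176 RPM, and miR-126 of endothelium was at 113 and 67.6 RPM. What these other tissues and cells contributed to the reads of miR-423, which many cell types make, was not tested.

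miR-423-5p was among the most abundant miRNAs of both libraries. A read was counted for an arm when it was identical to the listed sequence for 18 nt or more counted from its 5′ end, whatever its 3′ end. By this rule the 5p arm had 108440 dry period reads, or 7302 RPM (Wilson 95% interval 7259 to 7345). At peak lactation it had 53266 reads, or 3390 RPM (3361 to 3419). The arm ranked 13th of the conserved miRNAs during the dry period and 9th at peak lactation. Its share of all conserved miRNA reads was 1.19% during the dry period and 2.35% at peak lactation, so its level per clean read was lower at peak lactation while its share of the miRNA reads was higher. In whole tissue, fewer cells of a type and less RNA per cell cannot be told apart.

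The miRNAs next to the 5p arm in the dry period library were miR-29a (7741 RPM) and let-7e (7428 RPM) above it and miR-1 (7175 RPM) and miR-107 (6658 RPM) below it. At peak lactation they were miR-1 (3835 RPM) and let-7b (3534 RPM) above, and miR-320 (3242 RPM) and miR-29a (3073 RPM) below. None of these 8 intervals overlapped that of the 5p arm, so the order among them was set beyond counting error.

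miR-423-3p was far less abundant. It had 2029 dry period reads, or 137 RPM (Wilson 95% interval 131 to 143), and 908 reads at peak lactation, or 57.8 RPM (54.1 to 61.7). The ranks were 81 and 82. In the dry period its interval overlapped those of the miRNAs directly above it, miR-106b (137 RPM) and miR-151* (146 RPM), and not those of miR-15a and miR-339 below it, both at 123 RPM. At peak lactation its interval overlapped those of all 4 neighbours, miR-141, miR-222, miR-374a and miR-374b, which lay between 52.5 and 62.8 RPM.

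**Figure D1:**
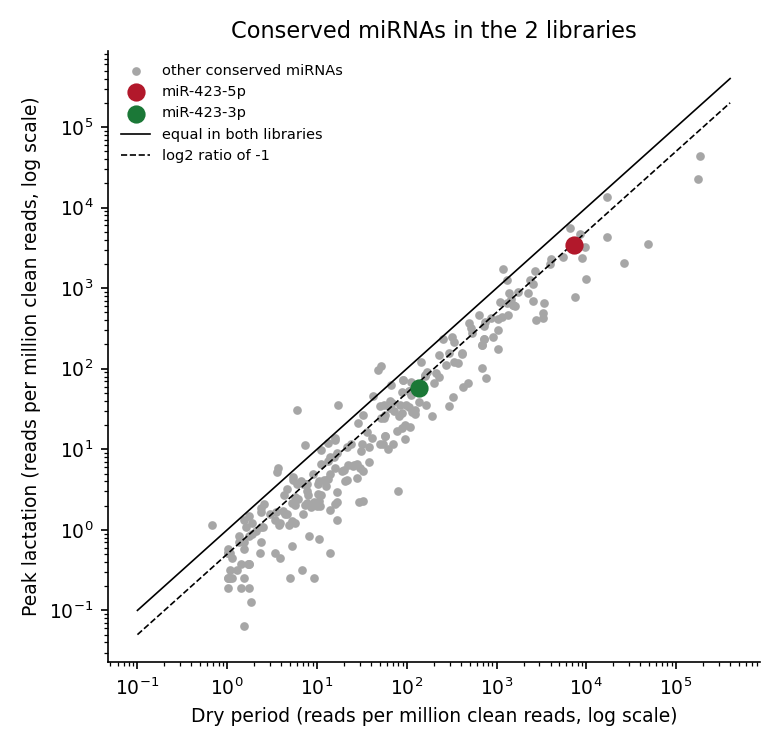
Level of each tested conserved miRNA with reads in both libraries, dry period on the x axis and peak lactation on the y axis, both in reads per 1000000 clean reads (RPM) on log scales. The 5p arm (red) sits at 7302 and 3390 RPM and the 3p arm (green) at 137 and 57.8 RPM, both close to the dashed line that marks a log2 ratio of -1. Scaling on miRNA reads as counted here puts both ratios above 0.

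The change between stages depended on what the counts were divided by. Per clean read, the log2 ratio of peak lactation over dry period was -1.11 for the 5p arm (95% interval -1.12 to -1.09) and -1.24 for the 3p arm (-1.35 to -1.13). Both ratios were above 0 when the libraries were scaled on the miRNA reads alone, as counted here. With the study's totals of miRNA reads as the denominator, both would be below 0. Calls required an absolute log2 ratio above 1 and an Audic-Claverie probability below 0.01, and miRNAs under 1 RPM in each of the libraries were not tested. Both arms were called lower per clean read, the 3p arm with a probability of 1.1e-111. So were 174 of the 257 miRNAs tested, or 67.7%, while 3, or 1.17%, were called higher. The log2 ratio alone was below -1 for 181 of them, or 70.4%, and above 1 for 3, or 1.17%. The call of both arms was therefore shared by most miRNAs. The median log2 ratio of the 257 miRNAs was -1.44 (quartiles -2.15 and -0.92), and the 5p arm lay 0.33 and the 3p arm 0.20 above it, inside the middle of the distribution. A more negative ratio than that of the 5p arm was found for 162 of the tested miRNAs.

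Scaling to the reads of conserved miRNAs, as counted here, moved the median of all tested miRNAs to 0.64. The log2 ratios became 0.98 for the 5p arm and 0.84 for the 3p arm, both just under the threshold of 1. The TMM factors of edgeR gave 0.19 and 0.06 with a median of -0.14, and the size factors of DESeq2 gave 0.29 and 0.15 with a median of -0.04. Keeping only reads of 21 to 24 nt, both in the count of each miRNA and in the library total, gave -0.45 and -0.64 with a median of -0.79. The miRNAs called lower and higher numbered 174 and 3 per clean read, 15 and 85 per conserved miRNA read, 48 and 21 with TMM factors, 42 and 28 with DESeq2 size factors, and 92 and 7 of 240 with reads of 21 to 24 nt. The first 4 of these scalings shift all miRNAs alike, so the arms keep their distances of 0.33 and 0.20 from the median by construction. With reads of 21 to 24 nt, where the counts of the miRNAs change as well, the distances were 0.34 and 0.15.

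**Figure D2:**
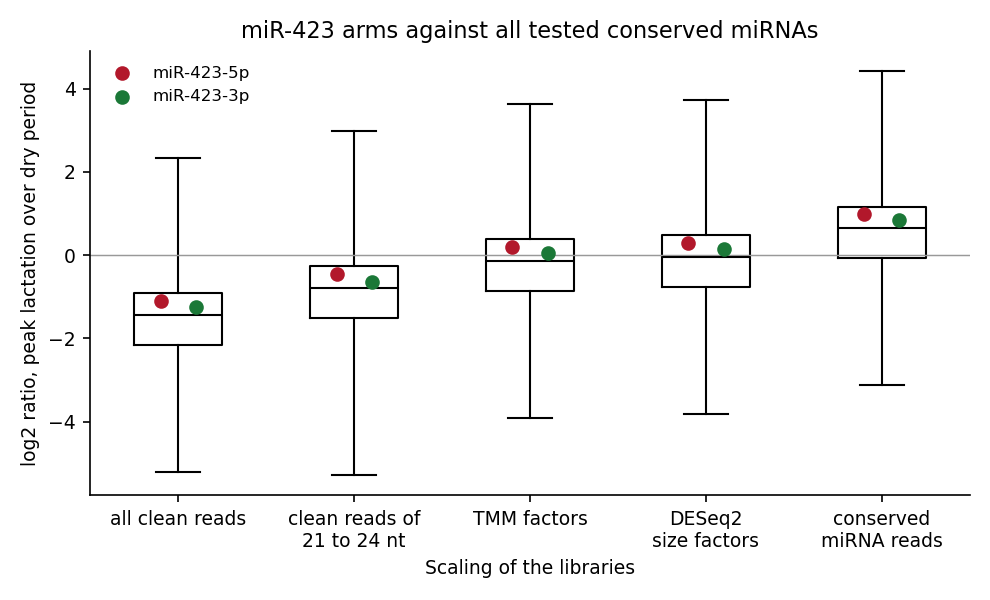
The log2 ratio of peak lactation over dry period under 5 scalings, with boxes from the lower to the upper quartile of all tested conserved miRNAs, a line at the median and whiskers to the lowest and highest value. The 5p arm (red) moves from -1.11 to 0.98 and the 3p arm (green) from -1.24 to 0.84 across the scalings, and both lie above the median in each of them.

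Among 76 other miRNAs with at least 1000 reads in both libraries, those with the log2 ratio per clean read nearest to that of the 5p arm were miR-23b-3p (-1.11), miR-192 (-1.03), miR-140 (-1.18), miR-26b (-1.18) and miR-24-3p (-1.02). The likeness rests on 1 ratio of 2 libraries. Of these, miR-140 was the nearest to the 5p arm in level, at 5509 and 2426 RPM.

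As reference genes, miR-423 arms are used beside miRNAs such as miR-16, miR-103, miR-191 and let-7a. Of 27 such miRNAs, 26 passed the filter on low values, and 20 of them (76.9%, against 70.4% of all tested miRNAs) had a log2 ratio per clean read below -1, with a median of -1.64 against -1.44 for all tested miRNAs. The ratios ran from -3.32 for miR-221 to -0.33 for miR-103. A more negative ratio than that of the 5p arm was found for 19 of the 26, or 73.1%, against 162 of the 257, or 63.0%, so the list lay near the background. Under the scalings on miRNA reads above, all of these ratios shift upward by the same amount as the median. Among the 51 other tested miRNAs whose GC content lay within 5 percentage points of that of the 5p arm, the median was -1.46 (quartiles -2.17 and -0.99). Among the 25 near the 3p arm it was -1.82 (quartiles -2.08 and -1.52). The 5p arm lay between the quartiles of its group, and the 3p arm, at -1.24, above the upper quartile of its own.

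In reads, the 5p arm far outnumbered the 3p arm in both libraries. How evenly the 2 sequences were captured was not tested, so the ratio of their molecules is not known. There were 53.4 reads of miR-423-5p per read of miR-423-3p in the dry period (exact binomial 95% interval 51.1 to 55.9) and 58.7 at peak lactation (54.9 to 62.7). The 3p arm thus made up 1.84% of the reads of the hairpin's arms in the dry period (1.76 to 1.92%) and 1.68% at peak lactation (1.57 to 1.79%). The log2 change of the ratio was 0.13 (95% interval 0.02 to 0.25, two-sided Fisher's exact test p = 0.020). This comparison does not depend on the scaling of the libraries, because both arms come from the same library. It did depend on where a read had to start. With reads whose 5′ end lay up to 2 nt before or 3 nt inside the listed start, the ratios were 42.0 (40.4 to 43.7) and 43.0 (40.7 to 45.6), and the log2 change was 0.03 (-0.06 to 0.13, two-sided Fisher's exact test p = 0.50).

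**Figure D3:**
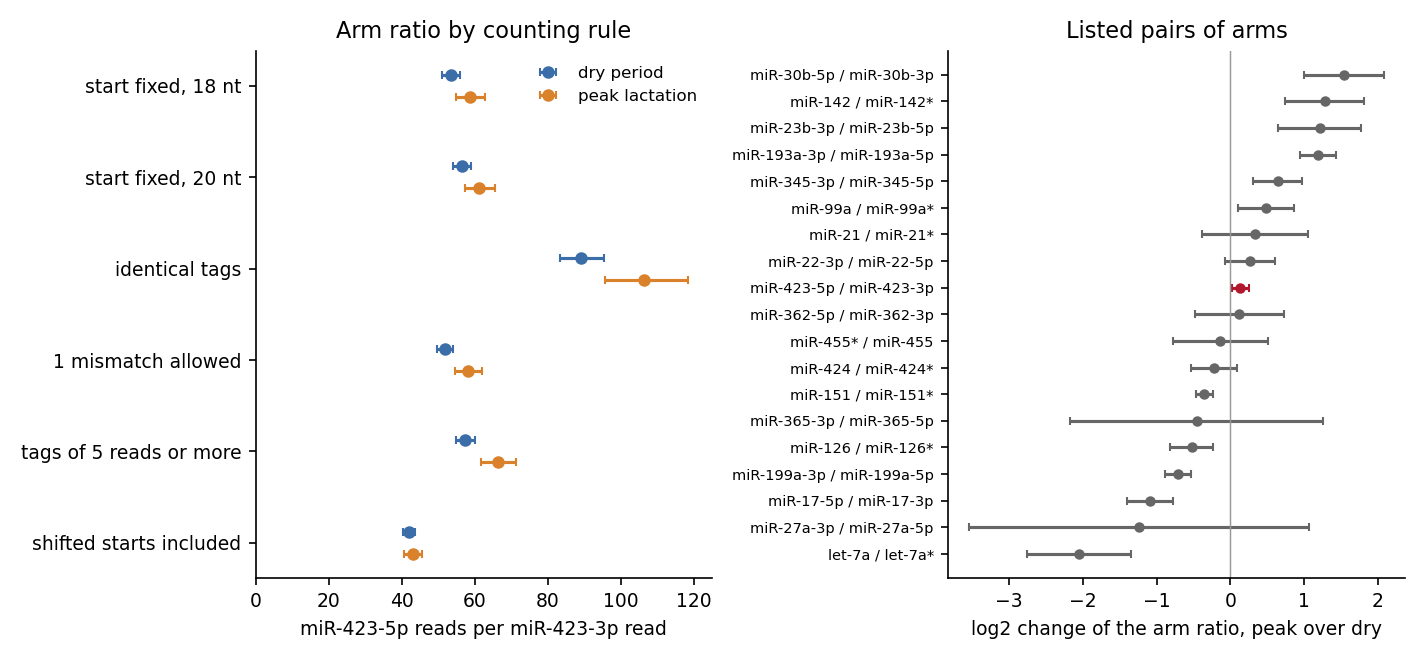
Left, reads of miR-423-5p per read of miR-423-3p under 6 counting rules, with exact binomial 95% intervals, in the dry period (blue) and at peak lactation (orange). Right, log2 change of the ratio of the more to the less abundant arm, with 95% intervals, in 19 listed pairs of arms. The gap between the libraries closes when shifted starts are included (42.0 and 43.0), and the change of miR-423 (red, 0.13) is among the smallest of the pairs.

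Both arms were listed by name for 30 hairpins, and 19 of these pairs had at least 100 reads over both arms in each library. The absolute log2 change of the ratio of major to minor arm was over 0.5 in 10 pairs, and the interval left out 0 in 12. Only miR-362 had a smaller absolute change (0.12, interval -0.48 to 0.73) than miR-423. At the ends of the range, the ratio of miR-30b-5p to miR-30b-3p went from 5.27 to 15.3, a log2 change of 1.54 (0.996 to 2.09), and that of let-7a to let-7a* had a log2 change of -2.05 (-2.76 to -1.35) with 44 and 25 reads of let-7a*. For miR-23b, whose 3p arm matched miR-423-5p most closely in its change between the libraries, the ratio of the arms went from 73.6 to 171, a log2 change of 1.21 (0.65 to 1.78). In size, the ratio of miR-423 ranked 6th of the 19 during the dry period and 7th at peak lactation. Like ratios were found for miR-199a-3p over miR-199a-5p (104 and 64.1) and miR-99a over miR-99a* (42.2 and 59.1).

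Most reads of the 5p arm were of a few forms that differ only at the 3′ end. The 5 most abundant tags are shown as deposited, with T for U, and capitals mark bases that do not match the listed sequence or run past its end.
miR-423-5p form 1: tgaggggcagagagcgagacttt
miR-423-5p form 2: tgaggggcagagagcgagactttT
miR-423-5p form 3: tgaggggcagagagcgagactt
miR-423-5p form 4: tgaggggcagagagcgagacttA
miR-423-5p form 5: tgaggggcagagagcgagactttA
The first form, identical to the listed sequence, had 75984 reads during the dry period and 37120 at peak lactation. That was 70.1% of the arm's reads (Wilson 95% interval 69.8 to 70.3%) and 69.7% (69.3 to 70.1%). The second form, with 1 more T, held 10.5% and 11.1%, and the third, which lacks the last base, 5.83% and 6.55%. Forms 4 and 5, ending in an exchanged or an added A, held 3.47% and 3.36%, and 3.32% and 3.43%. The order of the first 3 forms was the same in both libraries. Of the 219 and 151 distinct tags of the arm, 126 were seen in both libraries, and they held 99.9% of its reads in each.

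The 3p arm was spread over more forms, also shown as deposited.
miR-423-3p form 1: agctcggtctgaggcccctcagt
miR-423-3p form 2: agctcggtctgaggcccctcag
miR-423-3p form 3: agctcggtctgaggcccctcagtA
miR-423-3p form 4: agctcggtctgaggcccctcagtT
miR-423-3p form 5: agctcggtctgaggcccctcagtAT
The identical form had 852 reads during the dry period and 349 at peak lactation, or 42.0% of the arm's reads (Wilson 95% interval 39.9 to 44.2%) and 38.4% (35.3 to 41.6%). Forms 2 to 5 held from 5.13 to 7.93% in the dry period and from 5.07 to 10.8% at peak lactation. The difference from the 5p arm in the share of identical reads was -28.1 percentage points in the dry period and -31.3 points at peak lactation (two-sided Fisher's exact tests, adjusted p = 4.8e-147 and 1.2e-81 over 8 comparisons). Over the 99 conserved miRNAs with at least 500 reads in each library, the median share of identical reads was 44.1% and 43.9%. The 5p arm ranked 13th and 15th from the highest, and the 3p arm 59th and 64th.

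Reads longer than the listed sequence made up 14.9% of the 5p arm during the dry period and 15.6% at peak lactation, and 25.3% and 26.1% of the 3p arm. The first base past the end of the 5p arm was T in 74.7% of these reads in both libraries, and A in 24.96% and 24.83%. After the 3p arm the order was turned, with A in 65.6% and 61.2% and T in 33.5% and 36.3%. The extension was 1 nt long in 93.4% and 93.3% of the longer 5p reads, but in 56.8% and 48.1% of the longer 3p reads, of which 38.5% and 47.3% had 2 extra bases. G or C followed the listed end in fewer than 3% of the longer reads of either arm. No hairpin or genome sequence was used here, so bases copied from the gene and bases added later cannot be told apart.

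Reads that left the listed sequence before its end and carried other bases made up 6.67% and 6.12% of the 5p arm and 18.1% and 16.9% of the 3p arm. The first of these other bases was A in 89.0% and 89.3% of such 5p reads. It was A in 66.8% and 54.9%, and T in 27.2% and 35.3%, of such 3p reads. Reads that simply stopped short made up 8.38% and 8.60% of the 5p arm and 14.5% and 18.6% of the 3p arm.

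Between the libraries the end classes of the 5p arm differed by less than 1 percentage point each. Longer reads were 0.71 points more frequent at peak lactation and shorter reads with other bases 0.55 points less frequent (two-sided Fisher's exact tests, adjusted p = 7.9e-04 and 1.9e-04 over 8 comparisons). For identical and shorter reads of the 5p arm the adjusted p of the same exact test was 0.17 in both cases. In the 3p arm, shorter reads were 4.07 points more frequent at peak lactation (adjusted p = 0.016, two-sided Fisher's exact test), and the other 3 classes did not pass the test (adjusted p from 0.15 to 0.68). These small differences were measured between single libraries, and the spread of end classes among goats is unknown.

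Read lengths peaked at 23 nt in both arms, with 74.7% and 74.0% of the 5p reads and 49.2% and 43.5% of the 3p reads. The mean length was 23.0 ± 0.65 nt (SD over 108440 reads) for the 5p arm in the dry period and 23.1 ± 0.63 nt (SD over 53266 reads) at peak lactation. The 3p arm had the same mean of 23.0 nt in both libraries with a wider spread, an SD of 1.19 nt (2029 reads) and 1.29 nt (908 reads).

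Reads of 19 to 21 nt of the 5p arm had lower log2 ratios than the arm as a whole. Reads of 19 nt had a log2 ratio per clean read of -1.90 (95% interval -2.30 to -1.49), those of 20 nt -1.64 (-1.94 to -1.33) and those of 21 nt -1.44 (-1.54 to -1.34). At 22, 23, 24 and 25 nt the values were -0.96, -1.12, -1.04 and -1.06. The shortest reads, of 18 nt, did not follow this order, with 21 and 14 reads and a log2 ratio of -0.67 (-1.62 to 0.29), an interval that holds the value of the whole arm. The band of 19 to 21 nt had a log2 ratio of -1.48 (-1.58 to -1.39) and that of 22 to 25 nt one of -1.10 (-1.11 to -1.08), intervals that do not overlap, and the gap between the bands is the same under any scaling of the libraries. Among all clean reads the order of the bands was the reverse, with log2 ratios of 0.39 for 19 to 21 nt and -0.63 for 22 to 25 nt. In the 3p arm the same bands gave -1.18 (-1.54 to -0.81) and -1.25 (-1.37 to -1.13), which overlap.

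**Figure D4:**
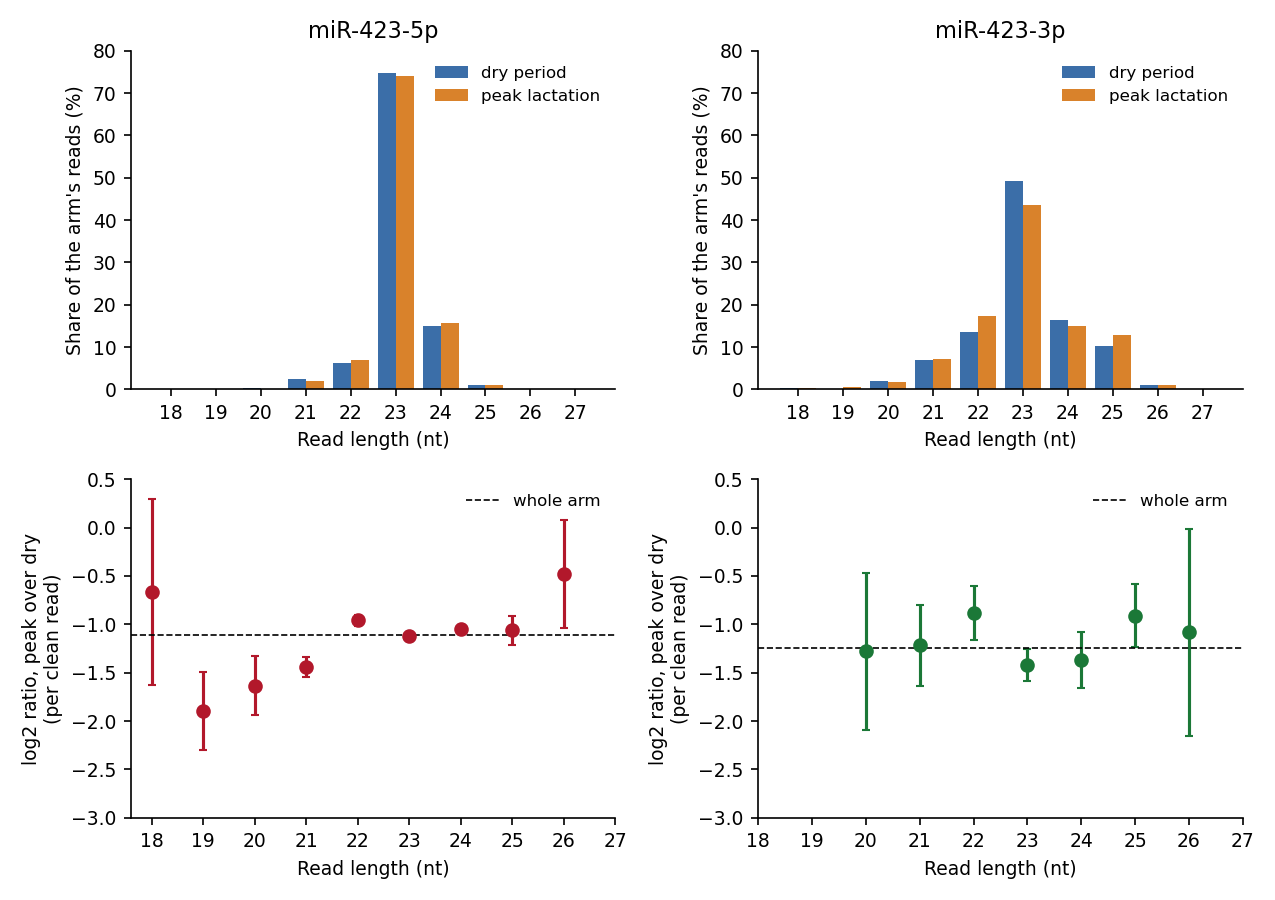
Top, share of each arm's reads by read length in the dry period (blue) and at peak lactation (orange), up to 27 nt. Bottom, log2 ratio of peak lactation over dry period per clean read for each length with at least 20 reads over both libraries, with 95% intervals and the value of the whole arm as a dashed line. The 5p reads of 19 to 21 nt lie between -1.90 and -1.44, below those of 22 to 25 nt, values that scaling on miRNA reads would shift upward alike, and the 3p reads are spread more widely around 23 nt.

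The 5′ end was fixed in the 5p arm and not in the 3p arm. Of the 5p reads found with a start between 2 nt before and 3 nt inside the listed one, 99.6% began at the listed start in both libraries. The most frequent other start lay 2 nt inside, with 275 of 108884 reads during the dry period and 135 of 53468 at peak lactation, or 0.253% and 0.252%. Its main form, with 187 and 82 reads, also ended 1 base later than the listed sequence.
miR-423-5p start 2 nt inside: aggggcagagagcgagactttt

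In the 3p arm, reads with 1 more base at the 5′ end numbered 527 of 2591 during the dry period and 317 of 1242 at peak lactation. They made up 20.3% (Wilson 95% interval 18.8 to 21.9%) and 25.5% (23.2 to 28.02%) of the arm. The base before the listed start was A in 525 of the 527 reads and in all 317. The 2 most abundant forms are shown with this base in capitals.
miR-423-3p start 1 nt before, form 1: Aagctcggtctgaggcccctcagt
miR-423-3p start 1 nt before, form 2: Aagctcggtctgaggcccctca
The first form had 154 and 76 reads and the second 77 and 57. With this start the bases 2 to 8 become AGCUCGG in place of GCUCGGU, a seed that no other of these miRNAs had. Starts 2 nt before the listed one had 14 and 5 reads, all with AA in front. Starts 1 nt inside had 20 and 11 reads.

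Per clean read, the log2 ratio of peak lactation over dry period was -0.81 (95% interval -1.02 to -0.61) for 3p reads with the extra A start and -1.24 (-1.35 to -1.13) for those with the listed start. These intervals do not overlap, and the gap between them is the same under any scaling. The shifted reads also ended differently. Their end was that of the listed sequence in 29.2% and 23.97%, it stopped short in 31.9% and 39.7%, and it ran past the listed end in 6.64% and 6.94%, against 25.3% and 26.1% of the reads with the listed start.

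**Figure D5:**
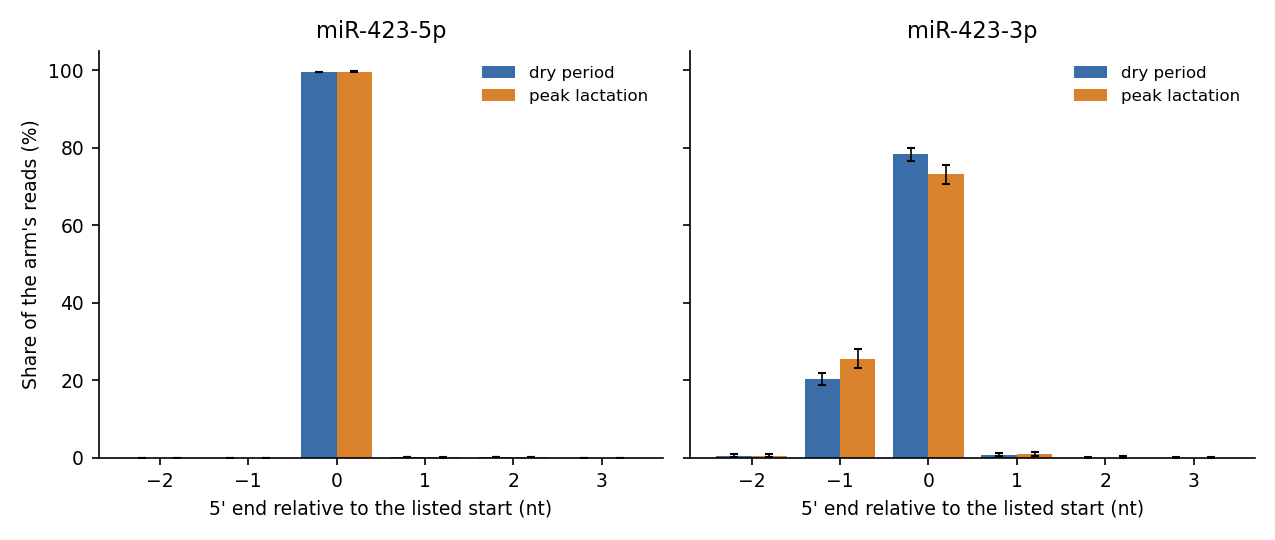
Share of each arm's reads (%) by the position of the 5′ end relative to the listed start, negative values being before it, in the dry period (blue) and at peak lactation (orange), with Wilson 95% intervals. Nearly all 5p reads start at 0, while 20.3% and 25.5% of the 3p reads start 1 nt before it.

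Over the 99 conserved miRNAs with at least 500 reads in each library, the median share of shifted starts was 0.75% in the dry period (quartiles 0.34 and 2.88%) and 0.78% at peak lactation (0.29 and 2.67%). With 21.7% and 26.9% in all, the 3p arm ranked 9th and 8th from the highest. The 5p arm, with 0.41% and 0.38%, ranked 66th and 69th.

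Reads with exactly 1 substitution in the first 18 nt were left out by the counting rule. They added 2998 reads to the 5p arm during the dry period and 1499 at peak lactation, or 2.69% (Wilson 95% interval 2.60 to 2.79%) and 2.74% (2.60 to 2.88%) of the matched and mismatched reads together, below the medians of 3.18% and 3.34% over the 99 miRNAs. All 54 possible substitutions were seen in both libraries. Counting positions from 1 at the 5′ end of the listed sequence, whose base comes first, the most frequent were A3G, with 280 and 143 reads, and A13C, with 220 and 91 reads. A3G made up 0.251% and 0.261% of the reads of the 5p arm, the highest share of any substitution there. The 3p arm had 122 and 35 such reads, or 5.67% (4.77 to 6.73%) and 3.71% (2.68 to 5.12%), and the most frequent were C18A (19 and 6 reads) and C18T (14 and 5 reads), at the last position of the matched stretch. No reads of the opposite strand of either arm were found (0 reads for each arm and library, which allows a level of up to 0.20 RPM in the dry period and 0.19 RPM at peak lactation).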

How the data were processed

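Small RNA under 30 nt was sequenced on the Solexa platform from 1 pooled library per stage. The authors filtered the reads for quality, adaptor contamination, missing inserts, poly(A) and a length of at least 18 nt, and deposited each distinct read (tag) with its count of clean reads, neither normalized nor aligned.

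Listed sequences were taken from the study's list of conserved miRNAs. A tag went to the miRNA it matched without mismatch over the most bases, starting at the 5′ end and for no fewer than 18 nt. Tags that matched several miRNAs equally far were counted in full for each, as for miR-16a and miR-16b. They entered the total of conserved miRNA reads once. RPM is the count per 1000000 clean reads. Intervals are at 95%, and 3 reads were taken as the detection limit. A count of 0 was set to 0.01 RPM. Ratios were compared by the Audic-Claverie probability and shares by two-sided Fisher's exact tests with Benjamini-Hochberg adjustment. Log2 ratios carry the Wilson interval for how the reads divide between the libraries, and intervals of arm ratio changes rest on the variance of the log odds.

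The named miRNAs are the arms, their 2 neighbours in rank on either side, the 5 nearest in log2 ratio, the listed pairs of arms and the 5 most abundant tags. Forms with a shifted start, the length bands and extremes of lists were chosen after their values were seen. The members and lists were chosen with earlier results of these data known. Alternatives covered scaling, filters, tests and counting rules. In simulated data, 165 of 165 miRNAs received the counts they were given. Calls with the right sign were made for 82 of 82 changed miRNAs, and 0 of 83 unchanged ones were called. The choice of scaling, on which the calls of both arms depend, was not tested in this way. Whether calls hold for log2 ratios close to the threshold, as those of both arms per clean read were, was not tested either. The spread among goats was not tested.

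Python 3.11.15, numpy 2.4.6, scipy 1.17.1, pandas 2.3.3, matplotlib 3.10.9, RNAduplex 2.7.2, R 4.3.3, edgeR 4.0.16 (TMM factors) and DESeq2 1.42.0 (size factors) were used.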

Additional observations from a re-analysis of the deposited data

How the results depend on the processing

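Of 92 values recomputed under alternatives, 64 kept their direction, their side of the threshold or their size within the error. These 64 include log2 ratios that some alternatives cannot change, as given below. No paired analysis was possible because each stage had 1 library, and leaving out a replicate was not possible either. The log2 ratios of miR-423-5p and miR-423-3p turned to 0.98 and 0.84 with reads of conserved miRNAs, as counted here, as the denominator. They turned to 0.19 and 0.058 with TMM factors, and to 0.29 and 0.15 with DESeq2 size factors. With reads of 21 to 24 nt they were -0.45 and -0.64, no longer past the threshold. The miRNAs called lower and higher numbered 15 and 85, 48 and 21, and 42 and 28 under the first 3 of these, against 174 and 3, and shifted 5′ ends gave 6 higher. The low-count filters, the exact binomial test and the Benjamini-Hochberg adjustment leave the log2 ratio of an arm as it is by construction. Adding 1 read hardly moves counts of this size. The other counting rules could move the ratios, and they kept both arms past the threshold.

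The arm ratio was 89.2 (dry period) and 106 (peak lactation) with identical tags, 42.0 and 43.0 with shifted 5′ ends, 57.4 and 66.3 with tags of at least 5 reads, and 1.84 and 1.80 with unique tags in place of reads. A stretch of 20 nt gave 56.4 in the dry period. The log2 change of the ratio was 0.035 with shifted 5′ ends. It stayed between 0.12 and 0.25, with p from 6.3e-04 to 0.048 by Fisher's exact test, under identical tags, a 20-nt stretch, 1 mismatch, tags of at least 5 reads and reads of 21 to 24 nt. Of the end classes, shorter 3p reads with other bases differed by -5.27 percentage points (adjusted p = 3.6e-04, Fisher's exact test) with tags of at least 5 reads, and by 0.25 points with a 20-nt stretch, against -1.29. Identical 5p reads differed by -0.61 points with a 20-nt stretch (adjusted p = 0.032, Fisher's exact test), against -0.38. The causes were not tested.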
